A study of Mus musculus with 6 samples.

Results

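Antibody secretion and antibody transport in the mouse large intestine were followed through 8 genes, chosen by name: Jchain, Mzb1, Derl3, Irf4, Prdm1, Pou2af1 and Sdc1, which are known from plasma cells, and Pigr, the epithelial receptor that carries their product. All 8 had a row among the 35434 genes of the deposited table. RNA was sequenced from large intestine of mice with IBD (inflammatory bowel disease) that had received regulatory T cells, named Ctrl-Tregs or Lenv-Tregs in the series' design text. The 6 libraries are titled int 2 or int 3, with 3 libraries each, and the labels do not say which title had which transfer. Differences below are int 3 minus int 2, with no transfer assigned. Both groups share the disease and a transfer of Tregs, so neither is an untreated control. The labels name no strain, age, sex or way in which disease was brought about, nor do they tie each library to its own animal. P-values then speak of how these libraries varied, which may be technical.

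Plasma cells are the end stage of the B cell lineage and fill the lamina propria of the gut, where most of them secrete IgA. The J chain links IgA molecules into polymers, and the polymeric immunoglobulin receptor, made by epithelial cells, binds these polymers at the basal side, carries them through the cell and is cleaved at the lumen to leave secretory IgA. Plasma cell identity is set by the transcription factors Irf4 and Prdm1 (Blimp-1) together with Xbp1, which enlarges the secretory endoplasmic reticulum. The immunoglobulin genes themselves were not analysed here.

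Values are FPKM (fragments per kilobase and 1e6 fragments sequenced), which are scaled by gene length and so allow levels of different genes to be compared. A gene rose or fell where limma, fitted to log2(FPKM + 1) over 12525 genes whose FPKM reached 1 in 3 or more libraries, gave an adjusted p (Benjamini-Hochberg) under 0.05. On this scale low genes change less than in FPKM. The 2 groups differed in how alike their libraries were. The SD over genes of the log2 difference between 2 libraries was 0.11 to 0.115 within int 2 and 0.271 to 0.513 within int 3, where int 3-2 and int 3-3 stood farthest apart. Hoxb13, a homeobox gene of the distal colon, was at 287 ± 1.60 FPKM (SD, n = 3) in int 2, and in int 3-1, int 3-2 and int 3-3 its values were 146, 16.4 and 267 FPKM. Depth was alike, with 29.2 to 30.8 M fragments (M, 1e6) per library recovered from the steps of the FPKM values.

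Of the 8 genes 7 were tested. Jchain, Mzb1, Derl3, Irf4 and Pou2af1 fell in int 3, none rose, and Pigr and Sdc1 did not pass. Of all tested genes 6.7% fell. Prdm1 was under the filter on low values. In 6 of the 8 genes every int 3 library was below every int 2 library, as in 17.9% of all tested genes, in Prdm1 every int 3 library was above, as in 22.4%, and in Sdc1 the groups overlapped. Irf4 passed the filter only through its int 2 libraries. Of 35 other called genes taken from the lists by the rule for named genes, 20 kept the call in every alternative that tested them. The other 15 (Ccr6, Cnn1, Des, Elf3, Fcmr, Fndc3b, Il17ra, Irf1, Lyz2, Ms4a1, Ptgs1, Rab11a, Sec61b, Tgfbr2 and Trpm5) lost it without any 1 int 2 library and without int 3-1. In whole tissue, fewer cells of a type and less RNA per cell cannot be told apart.

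**Figure D1:**
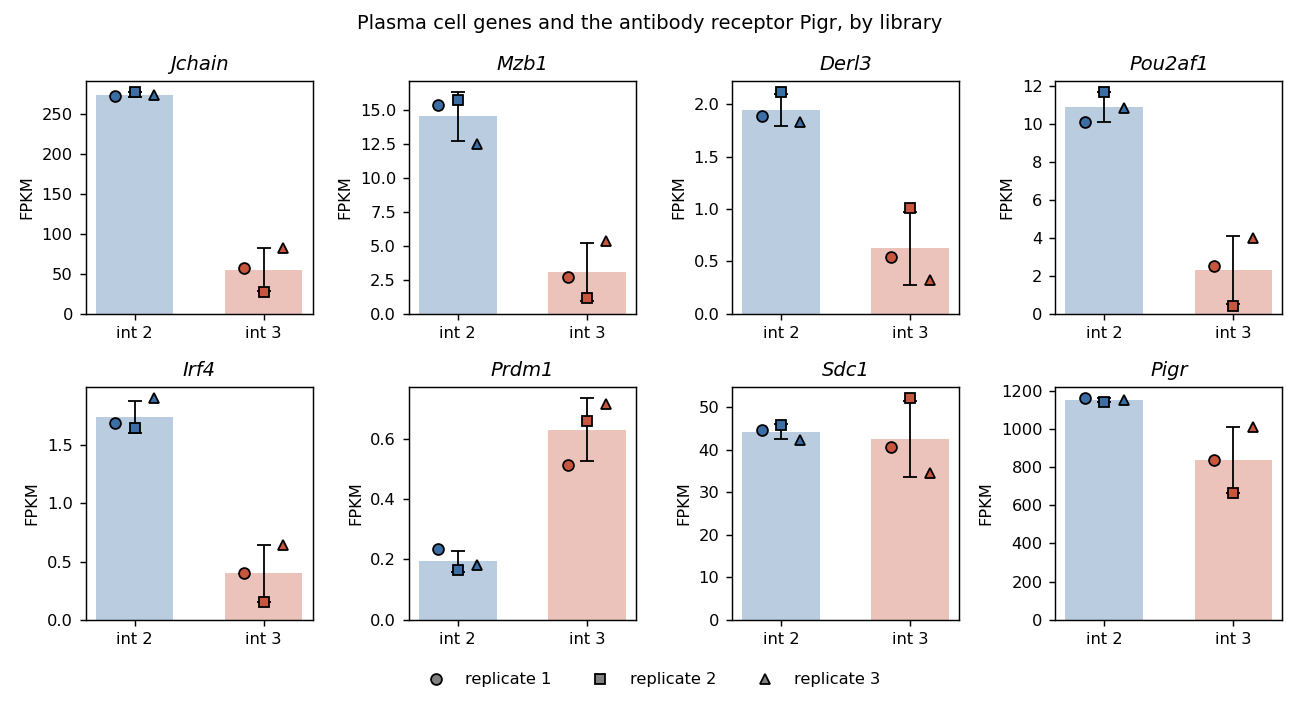
FPKM of the 8 genes, 1 panel each with its own linear axis starting at 0; bars are group means, error bars the SD of 3 libraries, and points the libraries. Jchain lay at 272 to 278 FPKM in int 2 and 26.9 to 81.7 in int 3, Pigr stayed above 660 FPKM in every library, and Sdc1 overlapped.

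Jchain, the joining chain of polymeric IgA and IgM, was at 272, 278 and 273 FPKM in libraries int 2-1, int 2-2 and int 2-3, and its values in int 3-1, int 3-2 and int 3-3 were 57.1, 26.9 and 81.7 FPKM. The groups were far apart, and int 3-2 was the lowest library. The mean was 4.97 times lower in int 3, a log2 change of -2.43 ± 0.37 (SE; 95% interval -3.32 to -1.53; limma adjusted p = 0.0096). Of the 12525 tested genes 11 had a lower log2 change. Counting error was small beside this, since Jchain had 1847 to 19294 fragments per library. Leaving out any 1 int 2 library moved the adjusted p to between 0.0515 and 0.0527, with the direction kept.

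Mzb1 and Derl3 work in the endoplasmic reticulum. Mzb1, a cochaperone of antibody secretion in B and plasma cells, was at 15.4, 15.7 and 12.5 FPKM in the int 2 libraries and at 2.72, 1.17 and 5.38 FPKM in the int 3 libraries, in the order of their numbers. It fell by 2.06 on the log2 scale (SE 0.37, limma adjusted p = 0.0162), and like Jchain it was lowest in int 3-2. The ratio of Jchain to Mzb1 was 19.1 ± 2.46 in int 2 and 19.7 ± 4.08 in int 3 (SD, n = 3), with overlapping groups.

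Derl3, a derlin of the pathway that returns misfolded proteins from the endoplasmic reticulum for degradation, was at 1.89, 2.12 and 1.83 FPKM in int 2 and at 0.545, 1.01 and 0.318 FPKM in int 3. It fell by 0.88 (SE 0.16, limma adjusted p = 0.0161). Here int 3-2 was the highest of the int 3 libraries and int 3-3 the lowest, the reverse of Jchain. The 95% Poisson intervals of these libraries, 0.737 to 1.34 FPKM for int 3-2 and 0.178 to 0.525 FPKM for int 3-3, do not overlap, although they rest on 46 and 15 fragments and cover counting error only. Without any 1 int 2 library, or without int 3-1, neither Mzb1 (adjusted p 0.0654 to 0.0812) nor Derl3 (0.0708 to 0.0832) passed.

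Among the transcription factors, Irf4, which B cells need to become plasma cells and which some T cells and dendritic cells also use, was at 1.69, 1.64 and 1.90 FPKM in int 2 and at 0.398, 0.153 and 0.643 FPKM in int 3. It fell by 0.99 (SE 0.14, limma adjusted p = 0.00723). With 25 to 311 fragments per library the groups were clearly separate, and int 3-2 was again lowest. Irf4 passed in each fit that left out 1 library. Those fits kept the filter set on all libraries, which Irf4 met only through int 2, where it was high.

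Pou2af1 (OCA-B), a coactivator of Oct factors in the B cell lineage, was at 10.1, 11.7 and 10.8 FPKM in int 2 and at 2.54, 0.412 and 3.97 FPKM in int 3. It fell by 2.02 (SE 0.44, limma adjusted p = 0.0286). Its int 3 libraries were spread from 3.79% (int 3-2) to 36.5% (int 3-3) of the int 2 mean. Its call was lost without any 1 int 2 library or without int 3-1 (adjusted p 0.0881 to 0.116), with a pseudocount of 0.1 (0.0603) and with no filter (0.0645).

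Prdm1, the repressor that ends the B cell programme in plasma cells, went the other way. It was at 0.234, 0.167 and 0.181 FPKM in int 2 and at 0.514, 0.659 and 0.716 FPKM in int 3, from 53 to 74 and from 162 to 232 fragments. The int 3 mean, 0.630 ± 0.104, was 3.25 times the int 2 mean, 0.194 ± 0.0354 (SD, n = 3), and the groups did not overlap. In the fit without a filter the log2 change was 0.45 ± 0.06 (SE; limma adjusted p = 0.0133). Prdm1 is also made by T cells, macrophages, endothelium and some epithelial cells, and which cells gave these fragments was not tested.

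Sdc1 (syndecan-1, CD138), the surface proteoglycan by which plasma cells are sorted, is also abundant on epithelium. It was at 44.6, 45.8 and 42.4 FPKM in int 2 and at 40.7, 52.1 and 34.6 FPKM in int 3, with a log2 change of -0.08 ± 0.14 (SE; 95% interval -0.42 to 0.27; limma adjusted p = 0.735). As in Derl3, int 3-2 was the highest and int 3-3 the lowest library. Relative to the epithelial keratin Krt8, Sdc1 was at 2.70 ± 0.126 per 100 FPKM of Krt8 in int 2 and at 2.45, 3.80 and 1.81 in the int 3 libraries.

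Pigr itself was abundant. It stood at 1160.4, 1139 and 1151 FPKM in int 2 and at 839, 665 and 1009 FPKM in int 3. All int 3 libraries were lower, at 73.0%, 57.8% and 87.7% of the int 2 mean, but the log2 change of -0.48 ± 0.15 (SE; 95% interval -0.83 to -0.12) did not pass (limma adjusted p = 0.080), and 5.28% of tested genes had a lower change. The call depended on the fit. It was made without int 3-2 (-0.32, adjusted p = 0.0404), without int 3-3 (-0.62, 0.00624), with quantile normalization (-0.33, 0.0265), with library weights (-0.46, 0.000143) and with a spread of its own for each group (0.0287).

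**Figure D2:**
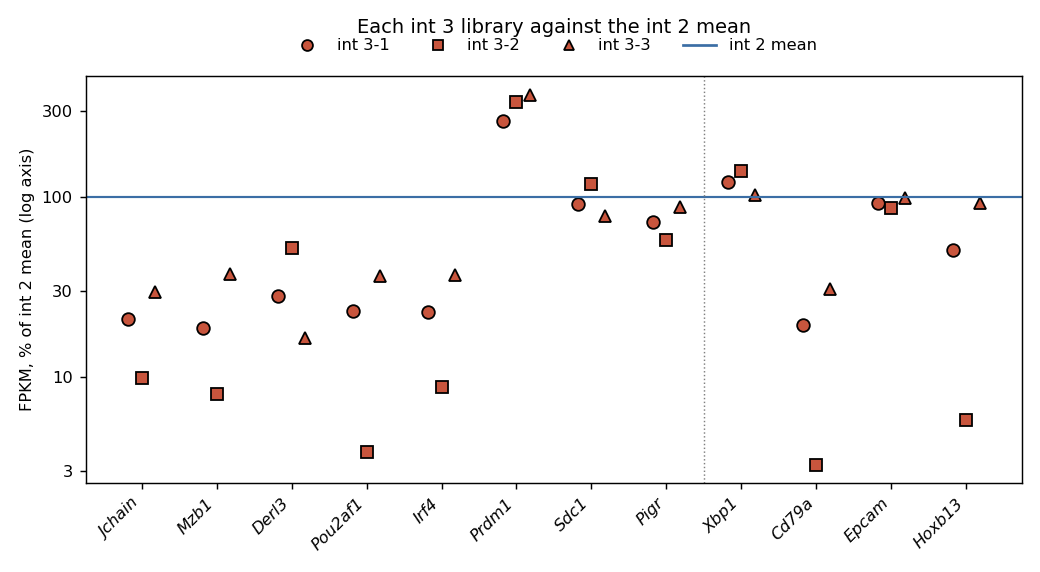
Each int 3 library as a percentage of the int 2 mean (log axis; 1 point per library) for the 8 genes and for Xbp1, Cd79a, Epcam and Hoxb13. Jchain lay at 9.81% to 29.8% and Pigr at 57.8% to 87.7%, while Prdm1 was above 100% in every library.

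The order of the int 3 libraries split the members. Jchain, Mzb1, Irf4, Pou2af1 and Pigr ran from int 3-2 through int 3-1 to int 3-3, an order found in 23.9% of all tested genes, whereas Derl3 and Sdc1 ran in reverse, as did 49.6%. Hoxb13 shared the first order. In 73.5% of all tested genes int 3-1 lay between int 3-2 and int 3-3. Whether the int 3 libraries are independent of each other was not tested, and the SDs and p-values take them as such. The part of position along the large intestine in these results was not tested. Without int 3-2, the log2 changes were -1.99 for Jchain, -1.67 for Mzb1, -1.04 for Derl3, -0.86 for Irf4 and -1.50 for Pou2af1, and limma called each of them (adjusted p 0.000413 to 0.00424). Over all tested genes that fit called more as well, with 1201 that fell and 1432 that rose, against 839 and 1082 in the main fit. It is not a test of position, since int 3-1, at 146 FPKM of Hoxb13, stayed in.

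Ranked by FPKM in int 2, the order was Pigr, Jchain, Sdc1, Mzb1, Pou2af1, Derl3, Irf4 and Prdm1, and of the neighbours only Derl3 and Irf4 had overlapping libraries. In int 3 Pigr remained first. Jchain (26.9 to 81.7 FPKM) overlapped Sdc1 (34.6 to 52.1 FPKM), Mzb1 overlapped Pou2af1, and Prdm1, Derl3 and Irf4 were not separate from each other.

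The receptor was then set against the plasma cell genes within each library. Pigr per Jchain, a ratio of FPKM, was 4.26, 4.10 and 4.21 in int 2 and 14.7, 24.7 and 12.4 in int 3, a mean 4.12 times higher. Every int 3 library held more receptor RNA per J chain RNA than any int 2 library. Put the other way, Jchain per 1000 FPKM of Pigr was 239 ± 4.71 in int 2 and 63.1 ± 20.7 in int 3 (SD, n = 3). On the log2 scale Jchain minus Pigr was -2.06 ± 0.0283 in int 2 and -4.01 ± 0.502 in int 3, a difference of -1.95. The exact two-sided permutation test gave p = 0.1, the smallest p that the 20 splits of 3 against 3 allow.

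The other plasma cell genes did not all share this shift. Pigr per Mzb1 averaged 80.0 in int 2 and 355 in int 3, Pigr per Irf4 662 and 2670, and Pigr per Pou2af1 106 and 732, with separate groups in each. Pigr per Derl3 was also separate, at 594 ± 48.9 against 1540, 661 and 3169, but int 3-2 lay close to int 2. Pigr per Prdm1 was lower in int 3, at 6058 against 1350, and Pigr per Sdc1 overlapped.

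**Figure D3:**
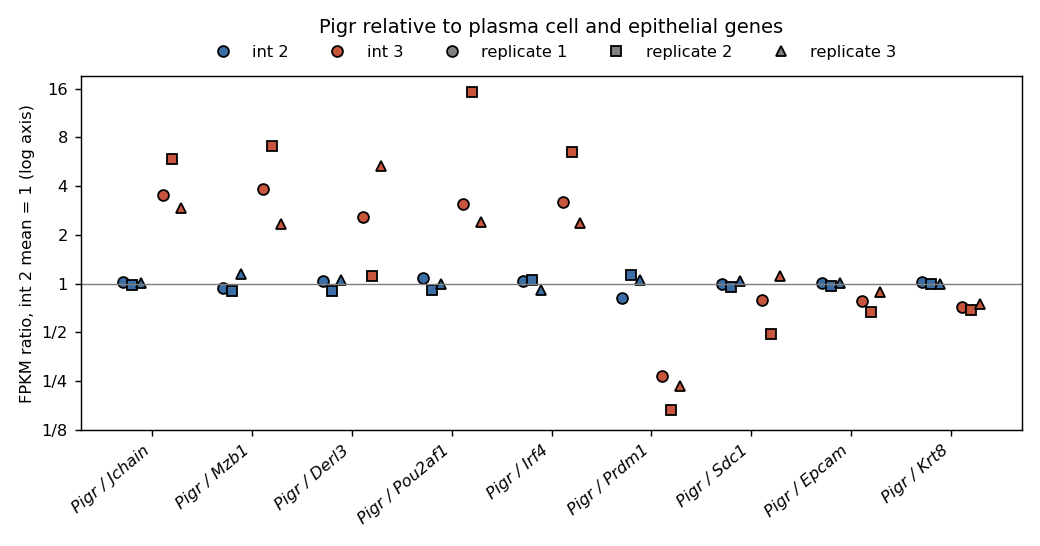
Ratio of Pigr FPKM to that of each named gene in every library, with the int 2 mean of each ratio set to 1 (log axis; 1 point per library). The ratios to Jchain, Mzb1, Derl3, Pou2af1 and Irf4 were above 1 in the 3 int 3 libraries, the ratio to Prdm1 was below 1, and those to Epcam and Krt8 were below 1.

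Against Krt8, Epcam and the sum of the epithelial markers Pigr was lower in every int 3 library, but not against every single marker. Pigr per Krt8 was 0.701 ± 0.0115 in int 2 and 0.506 ± 0.0215 in int 3 (SD, n = 3). Pigr per Epcam, the epithelial adhesion molecule, was 1.67 ± 0.0378 in int 2 and 1.31, 1.12 and 1.48 in int 3-1, int 3-2 and int 3-3. Epcam itself was at 689 ± 10.04 and 639 ± 44.7 FPKM (-0.11, limma adjusted p = 0.306) and Krt8 at 1640.0 ± 16.3 and 1648 ± 271 FPKM (-0.01, not passed, but 0.17 with an adjusted p of 0.0387 under quantile normalization). Of the 16 epithelial markers listed, all in the table and tested, 1 rose, the transcription factor Elf3 (158 to 244 FPKM, adjusted p = 0.0383), and 15 did not pass. Their summed FPKM was 9582 to 9601 in int 2 and 8291 to 11130 in int 3. Against that sum, Pigr was at 12.0 ± 0.124 per 100 FPKM in int 2, and the int 3 libraries were at 8.64, 8.02 and 9.06. In int 3-3, where Pigr was at 87.7% of its int 2 mean, Krt18, Fxyd3 and Cdx2 were lower still, at 80.5%, 78.0% and 47.1%. Against these markers Pigr was thus higher in int 3-3. The other listed markers were above 87.7% there.

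Promoters of the members were read from RefSeq, 250 bases before to 50 after the start of the gene on GRCm38.p6, an older build than that of the table. Of the 8 genes 7 were searched, on both strands, for the octamer of Oct factors (ATGCAAAT, found in 1.74% of 32851 promoters), the interferon response core (GAAANNGAA, 8.56%), the Ets-Irf composite (GGAANNGAA, 8.24%), the unfolded protein response element bound by Xbp1 (TGACGTGG, 0.676%) and an NF-kB site (GGGANTTCC, 1.68%). The endoplasmic reticulum stress element (0.119%, 39 promoters) and the E-box CACGTG (7.15%) were added after the sequences had been read. Shown are Jchain, the secreted partner, Pigr, its receptor, and Pou2af1 and Derl3, which hold matches to elements of the secretory stress response, with matches in capitals. They lie at chr5:88527848-88528147 (minus strand), chr1:130826434-130826733 (plus), chr9:51213440-51213739 (plus) and chr10:75893148-75893447 (plus).
Jchain: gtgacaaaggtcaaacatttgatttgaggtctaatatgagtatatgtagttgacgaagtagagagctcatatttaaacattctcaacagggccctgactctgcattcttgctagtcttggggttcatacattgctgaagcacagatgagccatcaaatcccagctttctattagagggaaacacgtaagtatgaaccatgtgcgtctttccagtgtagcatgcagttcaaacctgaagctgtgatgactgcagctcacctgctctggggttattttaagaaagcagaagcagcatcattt
Pigr: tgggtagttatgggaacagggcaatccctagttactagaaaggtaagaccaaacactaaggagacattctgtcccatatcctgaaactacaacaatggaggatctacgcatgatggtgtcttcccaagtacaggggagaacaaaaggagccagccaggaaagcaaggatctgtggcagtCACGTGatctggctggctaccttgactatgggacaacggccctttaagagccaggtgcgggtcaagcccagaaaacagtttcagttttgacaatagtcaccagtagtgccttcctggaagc
Pou2af1: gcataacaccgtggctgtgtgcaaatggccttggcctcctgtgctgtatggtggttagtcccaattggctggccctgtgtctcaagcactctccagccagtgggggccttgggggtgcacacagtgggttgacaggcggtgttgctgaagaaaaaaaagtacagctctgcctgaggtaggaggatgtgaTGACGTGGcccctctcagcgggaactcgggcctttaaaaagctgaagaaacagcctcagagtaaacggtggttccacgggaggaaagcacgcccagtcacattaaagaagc
Derl3: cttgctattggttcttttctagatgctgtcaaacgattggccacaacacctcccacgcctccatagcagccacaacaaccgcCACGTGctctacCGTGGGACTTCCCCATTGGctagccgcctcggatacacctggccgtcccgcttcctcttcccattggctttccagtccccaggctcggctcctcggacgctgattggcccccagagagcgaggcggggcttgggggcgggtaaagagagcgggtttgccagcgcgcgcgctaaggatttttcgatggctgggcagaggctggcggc
Pou2af1 held the unfolded protein response element at position -61 from the start. Derl3 held an E-box at -168 and a stress element at -156 on the minus strand, which overlaps its NF-kB match at -153. Pigr held an E-box at -71, and Jchain none of these. The letters of the octamer, the interferon response core and the Ets-Irf composite were in none of the 7 windows. A match is a description of the sequence and not evidence of binding.

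Few genes of protein folding in the endoplasmic reticulum changed in the main fit, which called 15.3% of all tested genes. Xbp1, the factor that builds the secretory apparatus of plasma cells and of goblet cells, was at 80.0 ± 1.01 FPKM in int 2 and at 96.6, 112 and 82.3 FPKM in int 3 (0.26, limma adjusted p = 0.156). Of 28 genes of endoplasmic reticulum folding and secretion, all tested, 1 rose (Sec61b, a subunit of the translocation channel, 240 to 319 FPKM, adjusted p = 0.0152), 1 fell (Ero1b, an oxidase of protein disulfide isomerase, 3.38 to 2.01 FPKM, 0.005) and 26 did not pass. Their median log2 change was 0.19, against 0.03 over all tested genes. In 23 of the 28 the int 3 libraries ran in the order opposite to Jchain, as in 49.6% of all tested genes. Without int 3-3 18 of the 28 rose, while over all tested genes the count that rose went from 1082 to 3124. Goblet cells secrete much protein too. Their 12 markers summed to 159% to 182% of the int 2 mean in the int 3 libraries, though none passed. The markers were mixed: 5 were higher in every int 3 library, 1 was lower in each and 6 overlapped, with a median log2 change of 0.17. Muc2, the gel-forming mucin, was at 94.6 ± 1.35 FPKM in int 2 and at 274, 467 and 102 FPKM in int 3 (adjusted p = 0.138). The part of goblet cells in the levels of Xbp1 and Derl3 was not tested.

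Of 14 further genes of the plasma cell programme 11 were tested: 1 fell, 2 rose and 8 did not pass, with a median of 0.26. Of all tested genes 6.7% fell and 8.64% rose, with a median of 0.03. Among the 14, every int 3 library was below every int 2 library in 5 genes, as in 17.9% of all tested genes. In 4 genes every int 3 library was above, as in 22.4%, and 5 overlapped. The one that fell was Tnfrsf13b (TACI), a receptor of B and plasma cells for the survival factors BAFF and APRIL, with a mean of 3.39 ± 0.227 FPKM in int 2 and 0.952 ± 0.381 in int 3 (-1.19, limma adjusted p = 0.00435). Cd38, an ectoenzyme of many lymphoid and other cells, rose from 44.6 to 88.6 FPKM (0.97, 0.002). Fndc3b, a membrane protein, rose from 4.77 to 7.47 FPKM (0.54, 0.0246). Under the filter, Tnfrsf17 (BCMA), the APRIL receptor of plasma cells, was at 0.794 ± 0.186 FPKM in int 2 and 0.242 ± 0.0604 FPKM in int 3. It was called in the fit without a filter (limma adjusted p = 0.0279). The other genes of this list under the filter were lower in every int 3 library too. Slamf7 went from 0.933 to 0.347 FPKM (0.0466 in that fit) and Eaf2 from 0.789 to 0.330 FPKM (0.0676). The count of these genes that rose went from 2 to 8 without int 3-3, and over all tested genes from 1082 to 3124.

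B cell genes fell beside the plasma cell genes. Of 18 B cell markers 17 were tested, 15 fell and 2 did not pass, with a median log2 change of -1.73. Without any 1 int 2 library or int 3-1, 6 or 7 fell. The markers summed to 244 to 251 FPKM in int 2 and to 36.4%, 26.8% and 45.1% of the int 2 mean in int 3-1, int 3-2 and int 3-3, and no marker was at 0 in any library. Those with the smallest p were Fcer2a (6.07 to 0.606 FPKM), Spib (10.3 to 3.03 FPKM) and Cd72 (11.0 to 5.07 FPKM). Of those that fell, Fcer2a and Vpreb3 passed the filter only through int 2, where they were high. Ms4a1 (CD20), which plasma cells lack, was at 14.2, 13.9 and 13.9 FPKM in int 2 and at 2.34, 0.148 and 4.27 FPKM in int 3 (-2.46, limma adjusted p = 0.0271).

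Jchain and Cd79a did not keep 1 ratio in every library. Jchain per Cd79a, a chain of the B cell receptor complex, was 4.04 ± 0.0895 in int 2 (SD, n = 3), 4.33 in int 3-1 and 3.92 in int 3-3, but 12.2 in int 3-2. In int 3-2, Cd79a stood at 2.20 FPKM and Jchain at 26.9 FPKM. The ratio depends on the B cell marker. Jchain was at 20.8%, 9.81% and 29.8% of its int 2 mean in int 3-1, int 3-2 and int 3-3. Cd79b (15.8%, 4.53% and 25.6%) and Cd22 (15.7%, 5.77% and 24.4%) were lower in each of these libraries. Spib (29.9%, 21.6% and 37.1%) and Cd72 (42.2%, 41.7% and 54.5%) were higher in each. What part of the fall in Jchain, Mzb1, Irf4 and Pou2af1 came from B cells and what part from plasma cells was not tested.

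Genes that induce, maintain or guide IgA-secreting cells were mixed. Of 29 listed genes 21 were tested: 6 fell, 2 rose and 13 did not pass, with a median of -0.23. The 3 with the smallest p that fell were all receptors. Cxcr4, the chemokine receptor that holds plasma cells in their niches, went from 9.50 ± 0.127 to 2.86 ± 0.919 FPKM (-1.47, limma adjusted p = 0.00393). Tnfrsf13c, the BAFF receptor of B cells, went from 8.48 to 1.07 FPKM (-2.27, 0.00423). Ccr6, which brings B cells to the subepithelial dome of gut lymphoid tissue, went from 2.36 to 0.648 FPKM (-1.07, 0.0196). Of those that rose, Tgfbr2, a receptor chain for TGF-beta, the switch factor for IgA, went from 22.3 to 30.6 FPKM (0.44, 0.0108).

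Ligands were followed too. Ccl20, the ligand of Ccr6, was at 15.1, 17.4 and 13.7 FPKM in int 2 and at 6.07, 2.27 and 8.4997 FPKM in int 3, so that every int 3 library was lower, but it did not pass (-1.43, limma adjusted p = 0.0511). Cxcl12, the ligand of Cxcr4, was higher in every int 3 library, at 20.1 ± 0.727 and 23.1 ± 2.06 FPKM (0.19, 0.138), and did not pass either. Tnfsf13 (APRIL), a ligand of Tnfrsf13b and Tnfrsf17, was at 2.77 ± 0.220 FPKM in int 2 and 2.77 ± 0.248 FPKM in int 3 (limma adjusted p = 0.989), and Tnfsf13b (BAFF) at 3.27 ± 0.0989 and 3.68 ± 1.095 FPKM (0.718). Ccl28, the epithelial chemokine that draws IgA plasma cells to the colon, was at 37.2, 38.1 and 36.6 FPKM in int 2 and at 30.6, 18.2 and 36.6 FPKM in int 3 (-0.43, 0.254), with int 3-3 just under int 2. Its receptor Ccr10 was under the filter, at 0.704 ± 0.149 and 0.190 ± 0.0792 FPKM (0.0249 without a filter).

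Of 13 other genes of antibody transport and mucosal Fc binding 12 were tested: 1 rose, 1 fell and 10 did not pass, with a median of -0.01. Fcgrt, the neonatal Fc receptor that carries IgG across epithelium, was at 41.4 ± 1.02 FPKM in int 2 and 39.7 ± 1.22 in int 3 (-0.06, limma adjusted p = 0.415). Its partner B2m was at 686 ± 2.37 and 956 ± 195 FPKM (0.46, 0.0898), and passed in 6 of 17 alternatives. Rab11a, a GTPase of the recycling endosomes through which Pigr passes, rose from 61.0 to 70.8 FPKM (0.21, 0.0276). Fcmr, which binds IgM on B cells, fell (19.0 to 2.26 FPKM) (-2.84, 0.0134).

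Pigr transcription is known to be raised by interferon, TNF, IL-4, IL-17 and microbial signals. Of 21 genes listed as its regulators 20 were tested: 8 rose, 1 fell and 11 did not pass, with a median of 0.15. By comparison 8.64% of tested genes rose. The TNF receptor Tnfrsf1a was at 29.9, 31.2 and 30.3 FPKM in int 2 and at 51.8, 52.9 and 50.7 FPKM in int 3 (0.75, limma adjusted p = 0.000458). The other TNF receptor, Tnfrsf1b, rose as well (5.19 to 10.6 FPKM, 0.000774). Irf1, an interferon-induced activator of Pigr, was at 27.3 ± 0.939 FPKM in int 2 and at 45.9, 33.9 and 56.6 FPKM in int 3 (0.69, 0.0456), and lost its call in 8 of 17 alternatives. Il17ra, the receptor chain for IL-17, fell from 5.04 to 3.78 FPKM (-0.34, 0.0343). Without any 1 int 2 library or int 3-1, 4 or 5 of the regulators rose. These genes are made by many cells besides epithelium.

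**Figure D4:**
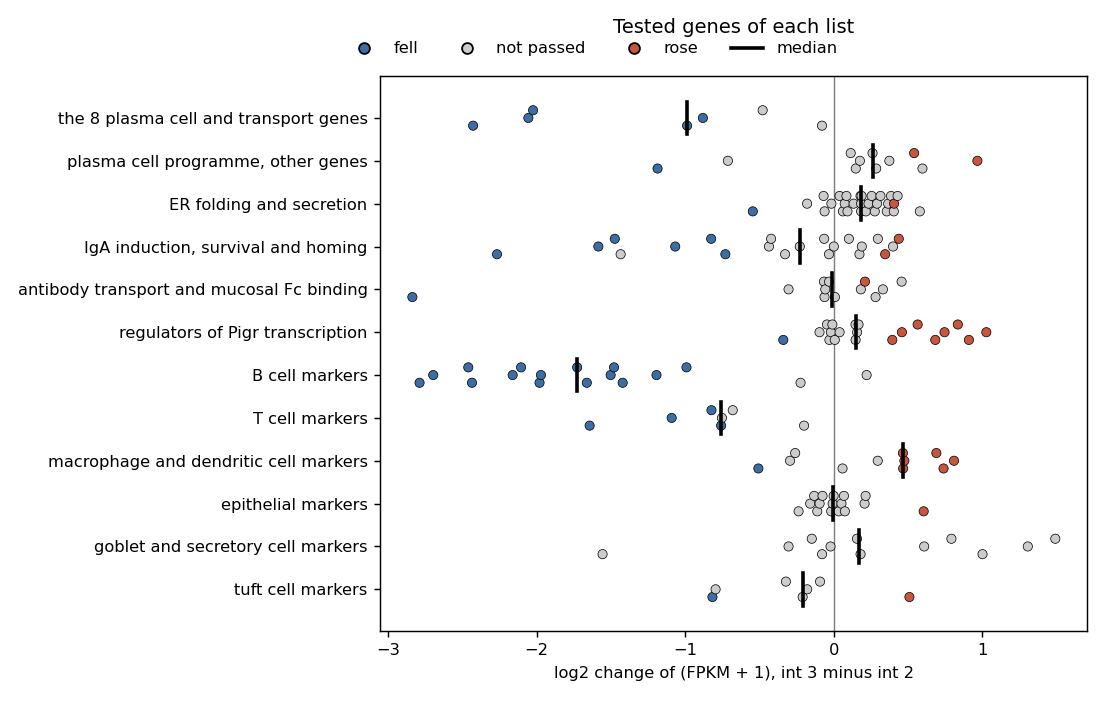
Log2 change (int 3 minus int 2, on log2(FPKM + 1)) of the tested genes of each list, 1 point per gene, coloured by whether it fell, rose or did not pass; bars are medians. The B cell median was -1.73, those of the epithelial and folding lists were -0.00 and 0.19, and 8 of 20 tested regulators of Pigr rose.

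Other cells of the tissue were followed by their markers. Of 15 T cell markers 12 were in the table and 7 tested: Lck, Cd2, Il7r and Cd3e fell and 3 did not pass, and Il7r passed the filter only through int 2. They summed to 30.2 to 31.9 FPKM in int 2 and 8.94 to 18.5 FPKM in int 3, and none was at 0. Of 14 macrophage and dendritic cell markers 11 were tested. C1qa, Cd68 and C1qc led 6 that rose, Lyz2 fell and 4 did not pass, and their sum was 461 to 463 FPKM in int 2 and 379 to 486 FPKM in int 3. Siglech, a marker of plasmacytoid dendritic cells, which also carry a large endoplasmic reticulum, was at 0.510 ± 0.0662 and 0.0580 ± 0.0147 FPKM. Of 10 tuft cell markers 7 were tested, Ptgs1 rose (5.26 to 8.002 FPKM), Trpm5 fell (1.31 to 0.332 FPKM) and 5 did not pass. Trpm5 and Sh2d6 passed the filter only through int 2. Il25 was listed at 0 in int 2-2 and in all int 3 libraries, and Gnat3 in int 3-3. The tuft markers summed to 25.9 to 27.4 FPKM in int 2 and 20.6 to 28.4 FPKM in int 3. The part of these cells in the changes of the members was not tested.

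Last, the genes whose values over the 6 libraries were most like those of Jchain and Pigr were found among 11954 tested, named genes, by the root mean square distance of log2(FPKM + 1) after subtraction of the int 2 mean. Among the nearest to Jchain were H2-Ob (0.108), Reg4 (0.121), Slc20a1 (0.137) and Naaladl1 (0.142). Reg4, a secreted lectin of gut epithelium, was at 698 to 728 FPKM in int 2 and 131, 72.4 and 184 FPKM in int 3. Nearest to Pigr were Rpl9 (0.0289), Ppargc1a (0.0292), Cdkn2b (0.0378), Fhl1 (0.0386) and Vdr (0.0393). Vdr, the vitamin D receptor, was at 53.6 to 54.1 FPKM in int 2 and at 38.9, 32.6 and 45.8 FPKM in int 3.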

How the data were processed

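The labels' protocols name TRIzol extraction of total RNA and a VAHTS library kit. Expression came as FPKM computed by the authors, in a single deposited table of 35434 gene symbols for 6 samples of large intestine. The submitters' processing notes name the build GRCm39. Aligner, counter, annotation and handling of strands or shared reads are not given in the sources used here. Columns were tied to samples by their titles.

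Tests of int 3 minus int 2 ran in R 4.3.3 with limma 3.58.1 (linear model, moderated with a trend, two-sided) on log2(FPKM + 1). They covered 12525 genes whose FPKM reached 1 in 3 or more libraries, with Benjamini-Hochberg adjustment and a threshold of 0.05. They were also run on simulated data in which both groups had the same spread, unlike these libraries. That run therefore does not check the test under unequal spread. Python 3.11.15 with matplotlib 3.10.9, scipy 1.17.1, pandas 2.3.3 and numpy 2.4.6 did the rest. FPKM steps gave whole fragments for 12517 tested genes (99.9%, tolerance 0.02 fragments). These gave exact Poisson intervals (95%) and 1 added alternative, limma's voom, which called 1844 genes. The main alternatives were another pseudocount, other filters and scalings, a replicate block, library weights and leaving out each library.

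The members and lists were chosen with earlier results of these data known. Named were all members, a fixed set of related genes, from each list up to 3 called genes with the smallest p in the commoner direction and 1 in the other, and the 5 genes nearest to Jchain and to Pigr. Some genes that the rule names are not reported here. Genes named outside this rule (Cd79a, Cd79b, Cd22, Cd3e, Siglech, Il25, Gnat3, Ccl20, Cxcl12, Vpreb3, Sh2d6, Krt18, Fxyd3, Cdx2, Slamf7, Eaf2) were chosen after their values were seen. Same-numbered libraries did not deviate together, so numbers were not used as pairs.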

Additional observations from a re-analysis of the deposited data

How the results depend on the processing

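The direction of the 5 members called as lower in int 3 held in every alternative that tested them, and their calls depended most on which library was left out. Against 5 members changed, the count was 3 with a mean FPKM of 5 or more, where Derl3 and Irf4 are not tested, and 1 to 6 when 1 library was left out. It was 1 (Irf4) without int 2-1, int 2-2 or int 2-3, and 2 (with Jchain) without int 3-1. The fits without a library kept the filter set on all libraries, which Irf4 met only through int 2. Of all genes 1921 were changed, 7156 with library weights, 889 with a replicate block and 615 to 4913 with 1 library left out. Of the genes of all lists 61 were changed, 37 with a mean FPKM of 5 or more, 137 with library weights and 26 to 118 with 1 library left out. A fit without a library has fewer samples, and the cause of the other shifts was not tested. The share of called genes that rose was 56.3%, and 67.7% on TPM, 51.4% with median-of-ratios scaling, 48.5% with quantile normalization and 48.8% with voom. Krt8, near 0 in the main fit, ran from -0.12 to 0.17 over the alternatives and was above 0 in several, among them TPM (0.06). It was called with quantile normalization only (0.17, limma adjusted p = 0.0387), and the cause was not tested. Jchain minus Pigr ranged from -2.15 to -1.67 over its alternatives. With the replicate block it was -1.95 (exact p = 0.25, the smallest for 3 pairs), and 4 members were called, Pou2af1 being lost (adjusted p = 0.0588). Same-numbered libraries had correlations of -0.0147, 0.00407 and -0.0215, so no joint deviation was seen. This check cannot decide whether they share more than a number, since the int 2 libraries hardly differed from each other. Sdc1 was at 0.06 without int 3-3 and below 0 otherwise. Epcam ran from -0.16 to 0.02 and was called with library weights only (-0.11, adjusted p = 0.0141). Depth limits Derl3, Irf4, Mzb1, Pou2af1 and Prdm1, which had as few as 15, 25, 36, 36 and 53 fragments in a library, and Derl3 and Irf4 fell by 1.81 and 2.36 on the log2 scale with voom, which adds no 1 FPKM.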

Other observations

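Stromal genes described the tissue around the plasma cells. Of 12 fibroblast and endothelial markers, all tested, 5 rose, 1 fell and 6 did not pass, with a median log2 change of 0.61. Pdgfra, a receptor of subepithelial fibroblasts, rose from 3.92 to 8.001 FPKM, and the collagens Col1a2 (59.8 to 77.8 FPKM) and Col3a1 (113 to 144 FPKM) rose too. Lyve1, a marker of lymphatic endothelium and some macrophages, fell from 10.7 to 5.85 FPKM. Of 10 smooth muscle markers Des (483 to 383 FPKM) and Cnn1 (471 to 401 FPKM) fell and 8 did not pass. Il6, a cytokine that helps plasma cells survive, was under the filter and at 0.0763 FPKM in int 2-2, listed at 0 in int 2-1 and int 2-3, and at 1.05, 1.06 and 0.525 FPKM in the int 3 libraries. It was chosen after its values were seen.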
